A study of Homo sapiens with 10 samples.

Results

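Translation initiation factors are the proteins that bring a ribosome, the initiator tRNA and an mRNA together at a start codon. Their genes were taken as the deposited gene symbols that begin with EIF followed by a digit from 1 to 6, without the eIF2 kinases (EIF2AK) and the eIF4E-binding proteins (EIF4EBP). The rule found 49 of the 22626 genes and loci in the count table. RNA sequencing had been done on ARPE-19, an established human line of retinal pigment epithelium (RPE) cells, grown in DMEM with 10% fetal bovine serum. The control group (MG, n = 5) spent 48 h in 5.5 mM D-glucose with 32 mM mannitol, a sugar alcohol that balances the osmolarity. The high glucose group (HG, n = 5) spent 48 h in 37.5 mM D-glucose without mannitol. Both groups are the same line, and the labels give no genetic change for either. Control libraries are named MG_1 to MG_5, and HG libraries are named HG_1 to HG_5 by their deposited column, because the columns could be matched to the labels only as a group. The labels do not say whether the libraries came from separate cultures, so p-values measure the spread between these libraries, which may be technical.

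In the textbook order of events, eIF2 carries the initiator tRNA to the small ribosomal subunit, where eIF1, eIF1A, eIF3 and eIF5 sit. The eIF4 group binds the mRNA cap (eIF4E), bridges it to the ribosome (eIF4G) and unwinds the leader (eIF4A with eIF4B or eIF4H), and the complex scans for a start codon. After the start codon is found, eIF2 leaves with GDP and is recharged by eIF2B, and eIF5B joins the large subunit. Cells control this pathway by phosphorylation of eIF2, which lowers eIF2B activity, and by 4E-BP proteins, which keep eIF4E from eIF4G. RNA levels show neither of these controls.

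Total counts were between 32448991 and 45864176 per library (control 33039260 to 45864176, HG 32448991 to 44400714), and the initiation factor genes held between 0.995% and 1.07% of them. MG_2 and HG_1 stood apart from the other 8 libraries in log2 levels taken relative to each gene's mean over the 10 libraries. These rose by 0.17 and 0.188 for each 10 percentage points of GC content there. In the other control libraries the slope was -0.0439 to -0.00519, and in the other HG libraries -0.0916 to -0.0259. A smaller difference in slope between the groups thus remains without the pair. Counts of calls are therefore given with and without this pair. Among 13 RPE markers, 7 had a mean FPKM (fragments scaled to transcript length and library size) of at least 1. BEST1, 1 of these 7, reached that mean only through 57.2 FPKM in MG_1 and 120 FPKM in MG_4, with at most 1.63 FPKM in any other library. RPE65, TTR and DCT, which mark differentiated RPE, did not exceed 0.066 in any library. The summed FPKM of these markers was 1540 to 1920 in control and 987 to 1290 in HG, mainly from the keratins KRT8 and KRT18. Of the 9 markers tested, 8 had a negative log2 fold change and 3 were called lower, KRT8 at -0.62, KRT18 at -0.68 and PMEL at -0.72 (adjusted p = 0.00159, 0.00142 and 0.00854, edgeR), and 7 were called lower without MG_2 and HG_1. Of the leukocyte markers, PTPRC did not exceed 0.0156 FPKM, and CD68, which is also a lysosomal protein, had 29.5 to 42.9 FPKM in control and 55.7 to 74.8 FPKM in HG. The 2 endothelial markers summed to at most 0.0136 FPKM. GLUL, 1 of 2 Mueller glia markers, had 12.2 to 15.9 FPKM in control and 13.2 to 15.5 in HG, and GFAP at most 0.0584. The part of the shifts in the RPE markers and CD68 in the results below was not tested. TXNIP, which glucose induces, was higher in HG by 3.15 on the log2 scale (adjusted p = 5.55e-05, edgeR).

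Promoter sequences of RefSeq (GRCh38.p14, 250 bases before to 50 after each annotated start) were matched by symbol to 42 of the 49 genes, with 58 entries. EIF2S2, EIF3A, EIF3CL, EIF3E, EIF3G, EIF3H and EIF3L had no entry. They are shown because many translation factor mRNAs are known to begin with a C followed by a run of pyrimidines (a TOP start, regulated through mTOR), and because CACGTG, the E-box bound by MYC and related factors, is a common element in such promoters. A C followed by at least 4 pyrimidines stood at the RefSeq start in 10 of the 58 entries (17.2%), against 4.07% of all 35116 promoter entries. This search was chosen after the values were seen. The following 4 starts are printed on the strand of the gene, with the pyrimidine run in capitals, the first capital being the RefSeq start. EIF2S3 (chrX:24054941-24054970, plus strand) and EIF3D (chr22:36529152-36529181, minus strand) were higher in HG, whereas EIF2A (chr3:150546772-150546801, plus strand) and EIF3F (chr11:7987322-7987351, plus strand) did not pass the test.
EIF2S3: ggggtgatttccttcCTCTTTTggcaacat
EIF3D: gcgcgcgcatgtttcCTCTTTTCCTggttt
EIF2A: tcacccgagcggtttCTCTTTCCgggacaa
EIF3F: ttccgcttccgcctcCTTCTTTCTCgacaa

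The E-box CACGTG, which reads the same on both strands, was present in 10 of the 58 entries (17.2%), against 7.26% of all promoter entries. The TOP-like starts and E-boxes were found among called genes and among the others: of the 8 called genes with an entry, 2 had such a start and 3 an E-box, and of the other 34 with an entry, which include the untested EIF4E1B, 8 had such a start and 7 an E-box. Of the genes described below as called, EIF4G1, EIF5A2 and EIF1B had the E-box, printed here in capitals within 30 bases of the gene's strand. EIF4G1 has several promoter entries, and only the entry at chr3:184314356-184314655 has matches. They lie at position -144 from the RefSeq start of that entry (chr3:184314450-184314479, plus strand) and at -67 (chr3:184314527-184314556, plus strand). EIF5A2 has matches at -187 (chr3:170908807-170908836, minus strand) and -162 (chr3:170908782-170908811, minus strand), and EIF1B has its match at -54 (chr3:40309641-40309670, plus strand).
EIF4G1 at -144: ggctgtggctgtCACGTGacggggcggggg
EIF4G1 at -67: ccctgcgccggtCACGTGggggcgccggct
EIF5A2 at -187: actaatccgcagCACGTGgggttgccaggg
EIF5A2 at -162: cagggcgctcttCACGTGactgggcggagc
EIF1B at -54: gcgcgggacggtCACGTGggaggggccgcg

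TGATGNAA, the core of the element bound by C/EBP and ATF4 dimers and searched on both strands, was found in 1 entry (1.72%, a promoter of EIF4E3), against 3.62% of all promoter entries. These matches are letters in a window and not measured binding.

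After 48 h of high glucose, 8 initiation factor genes were higher and 2 were lower. EIF1 and EIF5A2 had the largest rises, about 1.4-fold each, followed by EIF4E3, EIF3D, EIF1B, EIF2S3, EIF3CL and EIF2S2. EIF4G1, the main scaffold of the cap complex, and EIF5, the activator of GTP hydrolysis by eIF2, were lower. The comparison used the deposited counts in edgeR's quasi-likelihood test over 14936 genes and loci, with p-values adjusted over all of them after Benjamini and Hochberg and a call at an adjusted p under 0.05. Of the 49 genes 48 were tested. EIF4E1B, an oocyte form of eIF4E, had 0 counts in all 10 libraries, where 3 counts would be 0.0654 to 0.0925 CPM (counts scaled to the library size). The 8 higher genes are 16.7% of the 48, beside 7.62% of all genes and loci tested, and the 2 lower ones are 4.17%, beside 7.8%. In either direction 15.4% of all were called. With all libraries, the fitted value of each initiation factor gene stayed within 1.5-fold (for EIF3K, described below, not without HG_1 or MG_1). Of the 14936 genes and loci tested, 1256 had a fitted value beyond that limit, and 3.69% of the 14936 were both beyond it and called. The log2 fold changes of the 48 genes had a median of 0.04, against 0.0013 over everything tested, with 31 above and 17 below zero. In bulk RNA, a change in the number of cells of a kind and a change in RNA per cell cannot be told apart.

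Without MG_2 and HG_1, the 8 remaining libraries gave 12 higher and 6 lower genes, with all 10 calls above among them, and 13.3% and 13.8% of everything tested. With the GC and length trends taken out of every library there were 9 higher and 6 lower genes, 6 and 2 of them shared with the calls above, beside 14.5% and 14.8% of everything tested. Leaving out 1 library at a time gave 4 to 7 higher genes, with 4 without MG_1, MG_5, HG_2, HG_3 or HG_4 and 5 without MG_3, MG_4 or HG_5, and the share of everything tested that was called higher moved from 7.62% to between 5.3% and 9.74%. The calls of EIF1, EIF5A2, EIF4E3 and EIF3D were kept in every alternative in which the gene was tested. All HG libraries lay above all control libraries in 7 genes (EIF1, EIF5A2, EIF4E3, EIF3D, EIF2S2, EIF3CL and EIF1AY), an arrangement seen in 6.74% of all genes and loci tested. All HG libraries lay below all control libraries in 3 genes (EIF4G1, EIF4H and EIF4E2), against 6.91% of all.

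**Figure D1:**
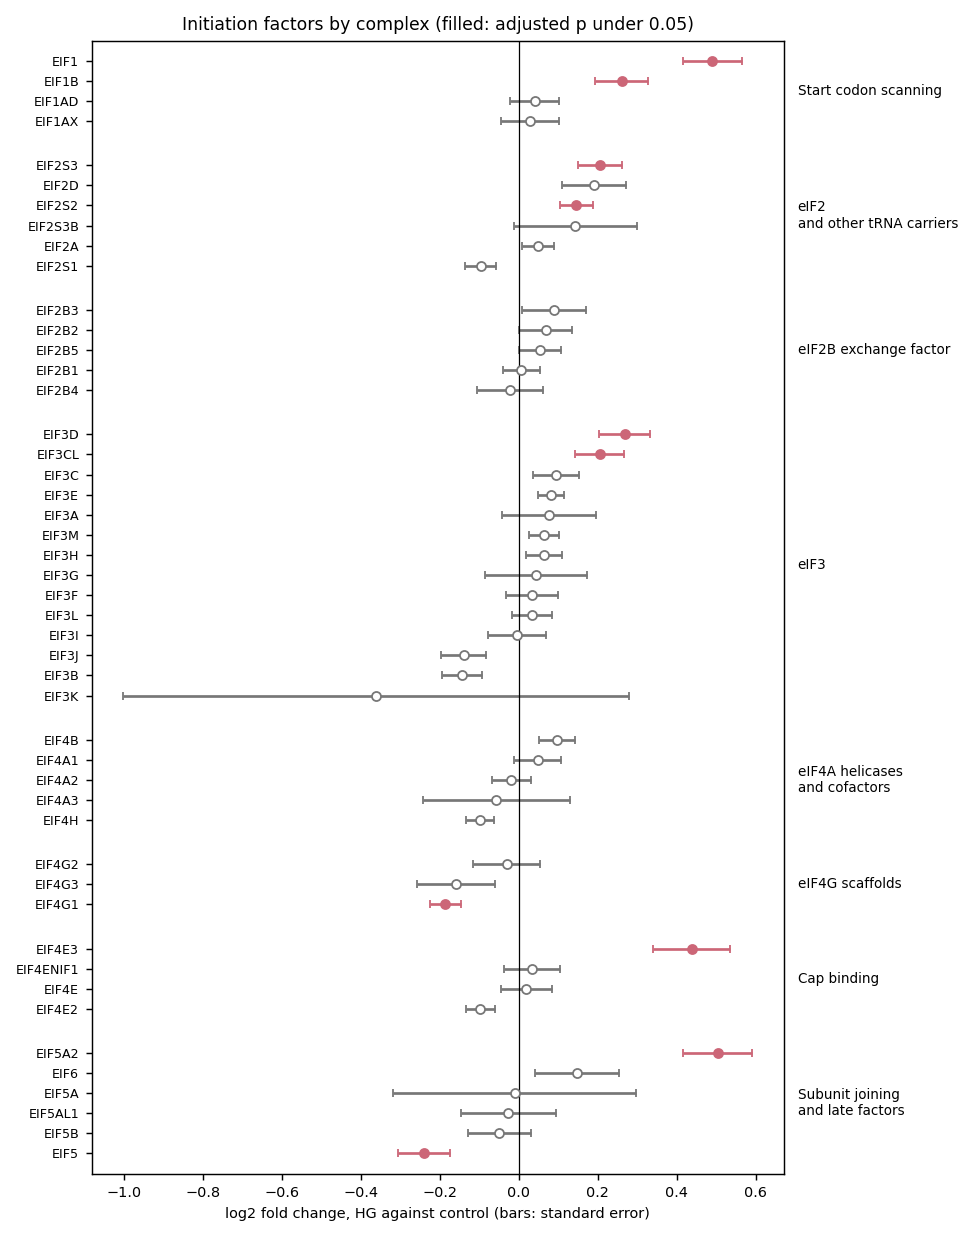
Log2 fold change of each tested initiation factor gene except EIF1AY, HG against control, on the x axis, with the genes grouped by complex on the y axis. Points are edgeR estimates from 5 libraries a group and bars are standard errors. Filled red points are the 10 genes with an adjusted p under 0.05, of which EIF4G1 and EIF5 lie to the left of zero, and the widest bar belongs to EIF3K.

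In the start codon group, 2 of the 5 genes were higher and 0 lower by edgeR (beside 7.62% and 7.8% of everything tested) and by DESeq2 (beside 10.2% and 10.7%). The same counts came from limma (beside 7.02% to 8.52% and 6.37% to 7.33%) and from edgeR without MG_2 and HG_1 (beside 13.3% and 13.8%). After removal of the GC and length trend 1 was higher and 0 lower (beside 14.5% and 14.8%). EIF1 (chr17:41688885-41692668 on GRCh38, plus strand), whose protein keeps the scanning ribosome open and rejects poor start codons, had 343, 440, 379, 367 and 359 CPM in MG_1 to MG_5 and 599, 514, 534, 516 and 488 CPM in HG_1 to HG_5. Every HG library exceeded every control library, and the highest control value, in MG_2, and the highest HG value, in HG_1, came from the libraries with the GC trend. The means were 378 ± 37.1 and 530 ± 41.7 CPM (SD, n = 5 each), a log2 fold change of 0.49 (SE 0.0745, where SE is the standard error from edgeR, adjusted p = 0.00152). Without MG_2 and HG_1 the log2 fold change was 0.50. At 181 FPKM over all libraries, EIF1 was the highest of the 5 genes of this group per length.

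EIF1B (chr3:40309684-40312424, plus strand), a close relative of EIF1, had 38.9, 44.9, 42.2, 40.1 and 40.5 CPM in control and 49.7, 52.0, 51.2, 52.1 and 42.3 CPM in HG. HG_5 fell within the control range, and the other 4 HG libraries lay above it. The log2 fold change was 0.26 (SE 0.0674, adjusted p = 0.0247, edgeR). This call was lost without MG_1, MG_4, MG_5, HG_2, HG_3 or HG_4, with an adjusted p of up to 0.065, and after removal of the GC and length trend (log2 fold change 0.16, adjusted p = 0.0727). EIF1AX, the X-linked eIF1A, had a log2 fold change of 0.03, its Y-linked copy EIF1AY 0.16 (adjusted p = 0.163) and the eIF1A-domain gene EIF1AD 0.04, none of which passed the test. The median of the 5 genes was 0.16.

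EIF1 and EIF1B were unequal in their change. The ratio of their counts within a library was 8.82, 9.79, 8.99, 9.15 and 8.87 in control and 12.04, 9.89, 10.4, 9.89 and 11.5 in HG. The HG ratios were all above the control ratios, although HG_2 and HG_4 exceeded MG_2 only narrowly. The mean log2 ratio differed by 0.23 (two-sided exact permutation test, p = 0.00794, the smallest that 5 against 5 libraries can give, adjusted p = 0.0317 over 8 ratios). From FPKM the difference was also 0.23, with an adjusted p of 0.0635 by the same exact test.

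**Figure D2:**
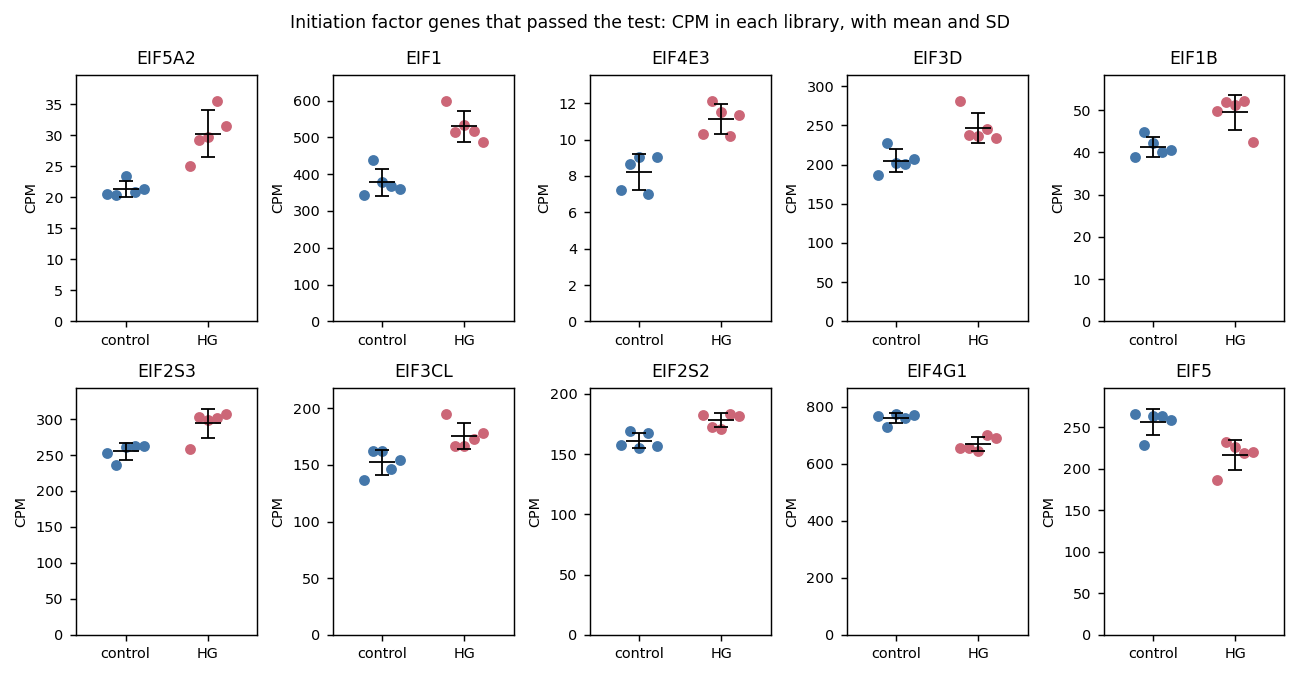
Level in CPM (y axis, starting at 0) of the 10 initiation factor genes that passed the test, in each control library (blue) and HG library (red), ordered by log2 fold change. Black bars are the mean and SD of 5 libraries, and in EIF1B, EIF2S3 and EIF5 a library of HG lies within the control range.

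Of the 6 tRNA carriers 2 were called higher and 0 lower (beside 7.62% and 7.8% of everything tested), and without MG_2 and HG_1 3 and 0 (beside 13.3% and 13.8%). The genes of the beta and gamma subunits of eIF2 rose and that of the alpha subunit did not pass. EIF2S3 (chrX:24054716-24077971, plus strand), the gamma subunit that binds the initiator tRNA and GTP, had 253, 236, 261, 262 and 263 CPM in control and 259, 303, 299, 302 and 307 CPM in HG. HG_1 was the exception, within the control range, while the other 4 HG libraries stood above every control library. The log2 fold change was 0.20 (SE 0.0552, adjusted p = 0.0292, edgeR), and 0.25 without HG_1. Its call was kept in only that case among the libraries left out singly, with an adjusted p of 0.0503 to 0.0738 without MG_1 to MG_5 or HG_2 to HG_5, and was lost with library size alone (adjusted p = 0.05001) and with limma on FPKM (adjusted p up to 0.0667). Of its 100-base windows 10.0% also occur in EIF2S3B, a retrocopy at 1.36 FPKM against 73.7 FPKM for EIF2S3.

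EIF2S2 (chr20:34088298-34112332, minus strand), the beta subunit, had 157, 169, 155, 167 and 157 CPM in control and 182, 173, 171, 183 and 182 CPM in HG. The groups did not overlap, but HG_3 and MG_2 were close to each other. The log2 fold change was 0.14 (SE 0.0418, adjusted p = 0.0393, edgeR), the smallest among the calls. It was lost without MG_1, MG_3, MG_5, HG_2, HG_3, HG_4 or HG_5 (adjusted p up to 0.1) and after removal of the GC and length trend (adjusted p = 0.0842), and 14.8% of its windows are shared with pseudogenes. EIF2S1, the alpha subunit that carries the regulatory phosphorylation site, had 112, 107, 105, 111 and 111 CPM in control and 99.4, 101, 98.7, 104 and 106 CPM in HG, a log2 fold change of -0.10 (adjusted p = 0.121, edgeR). DESeq2 called EIF2S1 lower (adjusted p = 0.0418). EIF2A and EIF2D, alternative tRNA carriers, had log2 fold changes of 0.05 and 0.19 (adjusted p = 0.498 and 0.151), and EIF2S3B 0.14 (adjusted p = 0.613). EIF2D was called higher after removal of the GC and length trend (0.16, adjusted p = 0.0147, edgeR) and without MG_2 and HG_1 (0.17, adjusted p = 0.0108).

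None of the 5 eIF2B genes passed the test in edgeR, with or without MG_2 and HG_1, in DESeq2 or in limma on FPKM, and 0 had an unadjusted p under 0.05 in edgeR with all libraries, DESeq2 or limma. As 15.4% of everything tested was called in edgeR, fewer than 1 of 5 genes would match that share. Their log2 fold changes lay between -0.02 for EIF2B4 and 0.09 for EIF2B3. EIF2B1, the highest per length at 24.3 FPKM, had 63.2, 60.7, 59.3, 64.2 and 61.5 CPM in control and 61.0, 60.6, 65.1, 65.0 and 58.4 CPM in HG. The groups of EIF2B1 overlapped over most of their range.

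The 14 genes of eIF3, the largest factor and the platform of the small subunit complex, included 2 called higher (14.3%, beside 7.62% of everything tested) and 0 called lower (beside 7.8%), with a median log2 fold change of 0.05. At an unadjusted p under 0.05 edgeR had 2 lower, EIF3B and EIF3J. The share of everything tested at that unadjusted limit was not counted, here or for the other lists. DESeq2 called 1 lower, EIF3B, and 3 higher, EIF3CL, EIF3D and EIF3E (beside 10.7% and 10.2% of everything tested). The same 4 genes were called without MG_2 and HG_1 (beside 13.8% and 13.3%). EIF3D (chr22:36510850-36529436, minus strand), a subunit that can itself bind the mRNA cap, had 187, 227, 202, 201 and 206 CPM in control and 281, 237, 236, 245 and 234 CPM in HG. All HG libraries exceeded all controls, with HG_1 well above the other 4. The log2 fold change was 0.27 (SE 0.0652, adjusted p = 0.0185, edgeR), and 0.26 without MG_2 and HG_1.

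EIF3CL (chr16:28379579-28403879, minus strand) is a near-copy of EIF3C (chr16:28688558-28735730, plus strand), a core subunit, and 97.1% of its 100-base windows occur in EIF3C. EIF3CL had 137, 162, 163, 147 and 155 CPM in control and 195, 167, 167, 173 and 178 CPM in HG, which did not overlap, with a log2 fold change of 0.20 (SE 0.0624, adjusted p = 0.0489, edgeR). The value for EIF3C was 0.09 (adjusted p = 0.335). How the deposited counting divided shared reads between the copies is not given in the sources used here, so the values of each are uncertain. Counted as 1 gene, they had 339 ± 18.6 CPM in control and 375 ± 23.2 CPM in HG, a log2 fold change of 0.15 (SE 0.0544, adjusted p = 0.101, edgeR), so the call was lost. The call of EIF3CL was also lost without any single library except MG_2 (adjusted p of 0.0541 to 0.106) and with no filter on low counts (adjusted p = 0.0543).

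The remaining eIF3 genes did not pass in edgeR with all libraries. EIF3B, a core subunit, was nearest in the downward direction at -0.14 (adjusted p = 0.0782), with 278, 305, 274, 284 and 273 CPM in control and 278, 250, 254, 259 and 238 CPM in HG. EIF3B passed in DESeq2 (adjusted p = 0.0311), without HG_1 (adjusted p = 0.0194), after removal of the GC and length trend, and without MG_2 and HG_1 together (adjusted p = 0.00781), where its log2 fold change was -0.15. EIF3J, a loosely bound subunit, had -0.14 (adjusted p = 0.13) and was called lower after removal of the GC and length trend (-0.19, adjusted p = 0.00802). EIF3E had 0.08 (adjusted p = 0.137) and was called higher by DESeq2 (adjusted p = 0.022) and without MG_2 and HG_1 (adjusted p = 0.034), but had -0.0027 after removal of the trend. EIF3I had the highest level per length in the complex, 178 FPKM, and its counts were 275, 316, 271, 273 and 279 CPM in control and 334, 263, 280, 262 and 271 CPM in HG. The groups of EIF3I overlapped, and in each the high value came from MG_2 or HG_1.

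EIF3K was the least reproducible of the tested genes, with 5.73, 61.1, 47.8, 49.4 and 22.9 CPM in control and 66.5, 28.0, 5.57, 22.9 and 22.7 CPM in HG. The SD was 60.2% of the mean in control and 77.3% in HG, and the log2 fold change of -0.36 had a standard error of 0.64 (adjusted p = 0.777). Leaving out 1 library moved this value from -0.09 (without HG_3) to -0.92 (without HG_1), and it was -0.67 without MG_2 and HG_1 together. Over the 48 genes the median SD was 6.22% of the mean in control and 7.48% in HG, and it exceeded 20% in 3 and 4 genes. Subunit EIF3F varied little in counts, with 323 ± 18.5 CPM in control and 330 ± 29.9 CPM in HG, but its deposited FPKM were 88.3 ± 33.1 and 73.0 ± 41.5, so the tables differ for this gene.

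**Figure D3:**
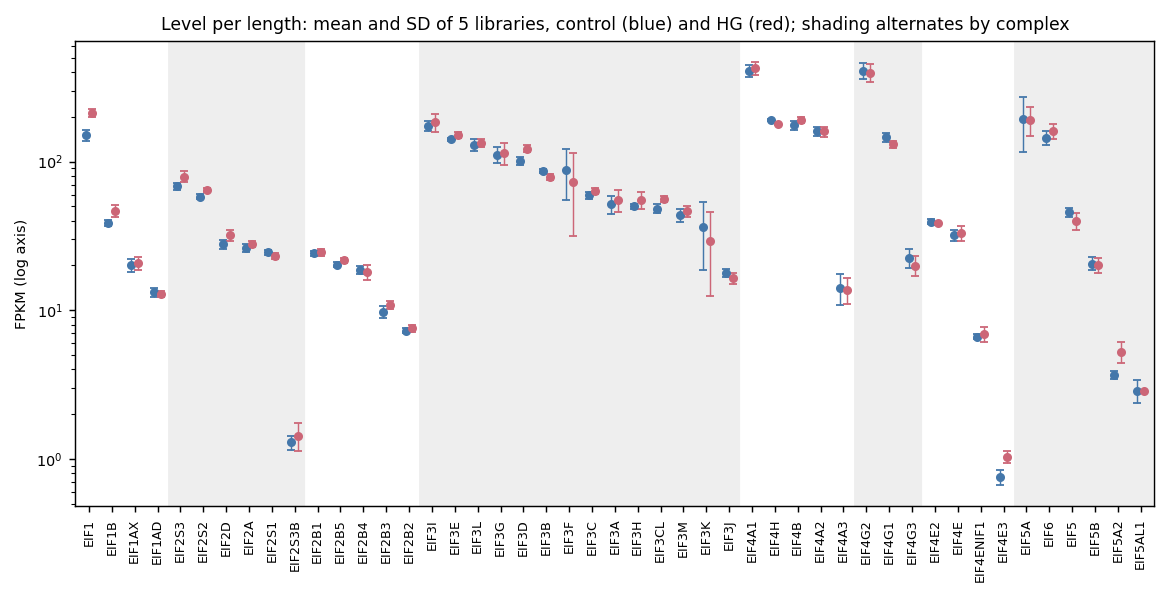
Level per length in FPKM (log axis) of 47 initiation factor genes (EIF1AY and EIF4E1B are left out), ordered within each complex by mean level. Points and bars are the mean and SD of 5 control libraries (blue) and 5 HG libraries (red). EIF4A1 and EIF4G2 lie highest, EIF4E3 lowest, and the widest bars are those of EIF3F, EIF3K and EIF5A.

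Levels per length spanned a wide range, from 0.896 FPKM for EIF4E3 to 416 FPKM for EIF4A1, with a median of 42.7 FPKM over the tested genes. EIF4A1 and EIF4G2, at 416 and 402 FPKM, did not differ beyond their spread over libraries (408 ± 35.7 and 409 ± 48.4 FPKM in control). Within the heterotrimer eIF2, EIF2S3 (73.7 FPKM) and EIF2S2 (61.5 FPKM) stood well above EIF2S1 (23.9 FPKM). Within eIF3, levels ran from 17.1 FPKM for EIF3J to 178 FPKM for EIF3I. Among the cap-binding genes, EIF4E2 had 38.9 FPKM and EIF4E 32.4 FPKM, both below the median of the tested genes.

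The eIF4A helicases and their cofactors showed no call in edgeR with all libraries, where 1 of the 5 genes, EIF4H, had an unadjusted p under 0.05. With 15.4% of everything tested called by edgeR, fewer than 1 of 5 genes would match that share. DESeq2 called EIF4H lower (adjusted p = 0.00677) and limma on FPKM called 0. After removal of the GC and length trend 1 was higher and 2 lower (beside 14.5% and 14.8%), and without MG_2 and HG_1 1 and 1 (beside 13.3% and 13.8%). EIF4H, a cofactor that stimulates the helicase, had 530, 520, 504, 521 and 507 CPM in control and 496, 465, 478, 493 and 479 CPM in HG. The groups did not overlap, and the log2 fold change was -0.10 (SE 0.0349, adjusted p = 0.0835, edgeR). Its adjusted p was 0.043 without HG_1, 0.02 without MG_2 and HG_1 together and 0.0338 after removal of the trend. EIF4A1, the main helicase, had 658, 723, 627, 652 and 638 CPM in control and 764, 630, 694, 666 and 656 CPM in HG, overlapping groups with a log2 fold change of 0.05 (adjusted p = 0.668). All windows of the EIF4A1 transcript are shared with other annotated genes, among them a readthrough transcript with SENP3. EIF4A2 had -0.02, with a call after removal of the GC and length trend (-0.09, adjusted p = 0.0449, edgeR). EIF4B had 0.10 (adjusted p = 0.185) and was called higher after that removal (adjusted p = 0.0157) and without MG_2 and HG_1 (adjusted p = 0.0316). EIF4A3, a helicase of the exon junction complex, had -0.06 with an SD of 25.7% of the mean in control.

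The 3 scaffold genes all had negative log2 fold changes, with a median of -0.16, and 1, EIF4G1, was called lower (beside 7.8% of everything tested). In the fit without MG_2 and HG_1, 0 were higher and 2 lower, EIF4G1 and EIF4G3 (beside 13.3% and 13.8%). EIF4G1 (chr3:184314495-184335358, plus strand), which bridges the cap-binding protein and eIF3, had 767, 729, 773, 758 and 772 CPM in control and 655, 653, 643, 700 and 689 CPM in HG. Every HG library lay below every control library, and the closest pair was HG_4 and MG_2. The means were 760 ± 18.1 and 668 ± 24.8 CPM (SD, n = 5 each), a log2 fold change of -0.19 (SE 0.0388, adjusted p = 0.00874, edgeR). The call was kept without any single library (adjusted p up to 0.0301), and was lost with limma on FPKM (adjusted p up to 0.141). No window of EIF4G1 is shared with another gene.

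EIF4G3, a paralogue that also binds eIF4E, had a log2 fold change of -0.16 with a standard error of 0.0998 (adjusted p = 0.34), and was called lower without MG_2 and HG_1 (-0.16, adjusted p = 0.0356, edgeR). EIF4G2, a scaffold without the eIF4E site that serves cap-independent initiation, had 1674, 1318, 1592, 1617 and 1678 CPM in control and 1281, 1604, 1544, 1628 and 1658 CPM in HG (log2 fold change -0.03, adjusted p = 0.865). Its lowest values were in MG_2 and HG_1, 1 in each group. The EIF4G1 to EIF4G2 ratio was 0.458, 0.553, 0.485, 0.469 and 0.46 in control and 0.512, 0.407, 0.416, 0.43 and 0.415 in HG, and the log2 ratio differed by -0.16 (exact permutation test, two-sided, p = 0.0794, adjusted p = 0.159). Without HG_1 the difference was -0.21 (adjusted p = 0.0317). The EIF4G1 to EIF4G3 ratio differed by -0.03 (p = 0.714 by the same exact test).

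Of the 4 tested cap-binding genes 1 was called higher, EIF4E3, and 0 lower (beside 7.62% and 7.8% of everything tested). In the fit without MG_2 and HG_1, 1 was higher, EIF4E3, and 1 lower, EIF4E2 (beside 13.3% and 13.8%). EIF4E3 (chr3:71675416-71754773, minus strand), which codes for a relative of eIF4E, had 7.25, 8.63, 9.04, 7.02 and 9.05 CPM in control and 10.3, 12.1, 11.5, 10.2 and 11.4 CPM in HG. The groups did not overlap. The log2 fold change was 0.44 (SE 0.0983, adjusted p = 0.0126, edgeR), at a level of 0.757 FPKM in control and 1.03 FPKM in HG. As log2(FPKM + 1), where the pseudocount shrinks differences of low genes, it was 0.21. EIF4E, the main cap-binding protein, had 82.5, 71.7, 81.2, 83.8 and 80.2 CPM in control and 70.3, 82.6, 85.1, 83.7 and 83.0 CPM in HG (log2 fold change 0.02, adjusted p = 0.887). Its lowest values were again in MG_2 and HG_1.

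EIF4E2, a repressive cap-binding protein, was the highest of this group per length and had 93.3, 95.8, 92.1, 91.4 and 92.6 CPM in control and 89.7, 87.5, 83.5, 87.5 and 86.5 CPM in HG. The groups did not overlap, yet the difference was small, with a log2 fold change of -0.10 (adjusted p = 0.103, edgeR). DESeq2 (adjusted p = 0.0236) and the fit without MG_2 and HG_1 (adjusted p = 0.0324) called it, whereas limma on FPKM gave -0.04 (adjusted p = 0.574 to 0.582). EIF4ENIF1, the transporter of eIF4E, had 0.03 (adjusted p = 0.821). The ratio of EIF4E to EIF4E3 was 11.4, 8.29, 8.98, 11.9 and 8.85 in control and 6.81, 6.81, 7.38, 8.19 and 7.29 in HG. It was lower in all 5 HG libraries than in any control, although HG_4 lay only narrowly below MG_2. The difference in log2 ratio was -0.43 (exact permutation test, two-sided, p = 0.00794, adjusted p = 0.0317). From FPKM it was -0.40, with an adjusted p of 0.0635 by the same exact test. The ratio of EIF4E to EIF4E2 differed by 0.12 (p = 0.214 by the same exact test, adjusted p = 0.343), and by 0.18 without HG_1 (adjusted p = 0.0317).

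**Figure D4:**
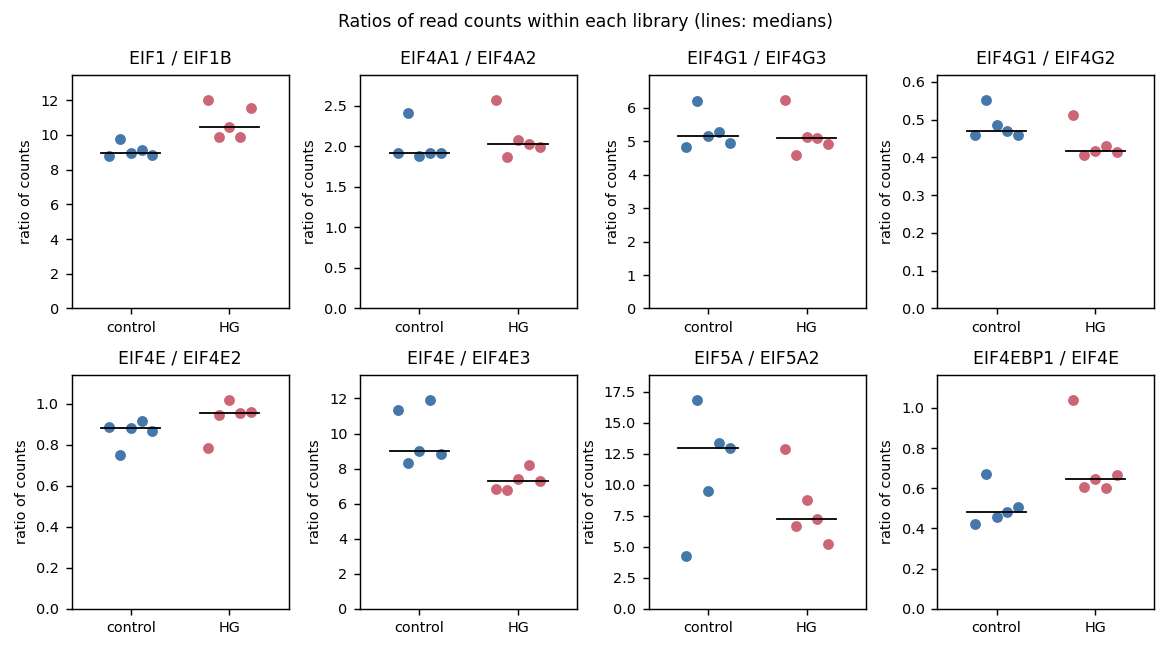
Ratio of read counts (y axis, starting at 0) of 8 pairs of genes within each control library (blue) and HG library (red), with lines at the medians. The groups are separate for EIF1 to EIF1B and EIF4E to EIF4E3 and overlap in the other 6 pairs.

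Of the 6 factors of the last steps 1 was called higher, EIF5A2, and 1 lower, EIF5 (beside 7.62% and 7.8% of everything tested). Without MG_2 and HG_1 2 were higher and 1 lower (beside 13.3% and 13.8%). EIF5A2 (chr3:170888415-170908693, minus strand), the less abundant form of the hypusine-bearing factor eIF5A, which helps ribosomes over difficult peptide bonds, had 20.5, 20.4, 23.5, 20.8 and 21.4 CPM in control and 25.1, 29.2, 29.8, 35.5 and 31.6 CPM in HG. The groups did not overlap, and HG_1 was the HG library closest to the controls. The means were 21.3 ± 1.26 and 30.2 ± 3.79 CPM (SD, n = 5 each), a log2 fold change of 0.50 (SE 0.0876, adjusted p = 0.00318, edgeR). Without MG_2 and HG_1 it was 0.55. No window of the EIF5A2 transcript occurs in another gene.

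EIF5A, the abundant form, varied too widely for a comparison, with 86.8, 343, 224, 278 and 277 CPM in control and 323, 195, 261, 256 and 165 CPM in HG. Its log2 fold change was -0.01 with a standard error of 0.308 (adjusted p = 0.988). The EIF5A to EIF5A2 ratio differed by -0.41 on the log2 scale, with overlapping groups (exact permutation test, two-sided, p = 0.333). The difference was -0.73 without MG_1 (adjusted p = 0.0847), -0.23 without MG_2 and -0.27 without HG_5 by the same exact test. Per length EIF5A stood at 192 FPKM and EIF5A2 at 4.46 FPKM.

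EIF5 (chr14:103333544-103345025, plus strand), which stimulates GTP hydrolysis by eIF2 once the start codon is met, had 265.5, 229, 263, 264 and 258 CPM in control and 186, 232, 226, 219 and 220 CPM in HG. Only HG_2 overlapped the controls, through the low value of MG_2. The log2 fold change was -0.24 (SE 0.0654, adjusted p = 0.0307, edgeR), and -0.23 without MG_2 and HG_1 (adjusted p = 0.000452). It was lost without MG_1, MG_3, MG_4, MG_5, HG_3, HG_4 or HG_5 (adjusted p up to 0.0787), with library size alone (adjusted p = 0.0749) and with limma on FPKM (adjusted p up to 0.212). EIF5B, the joining factor, had -0.05, and the retrocopy EIF5AL1 -0.03. EIF6, which keeps the large subunit apart, had 0.15 (adjusted p = 0.414) and was called higher after removal of the GC and length trend (adjusted p = 0.0121) and without MG_2 and HG_1 (adjusted p = 0.032).

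**Figure D5:**
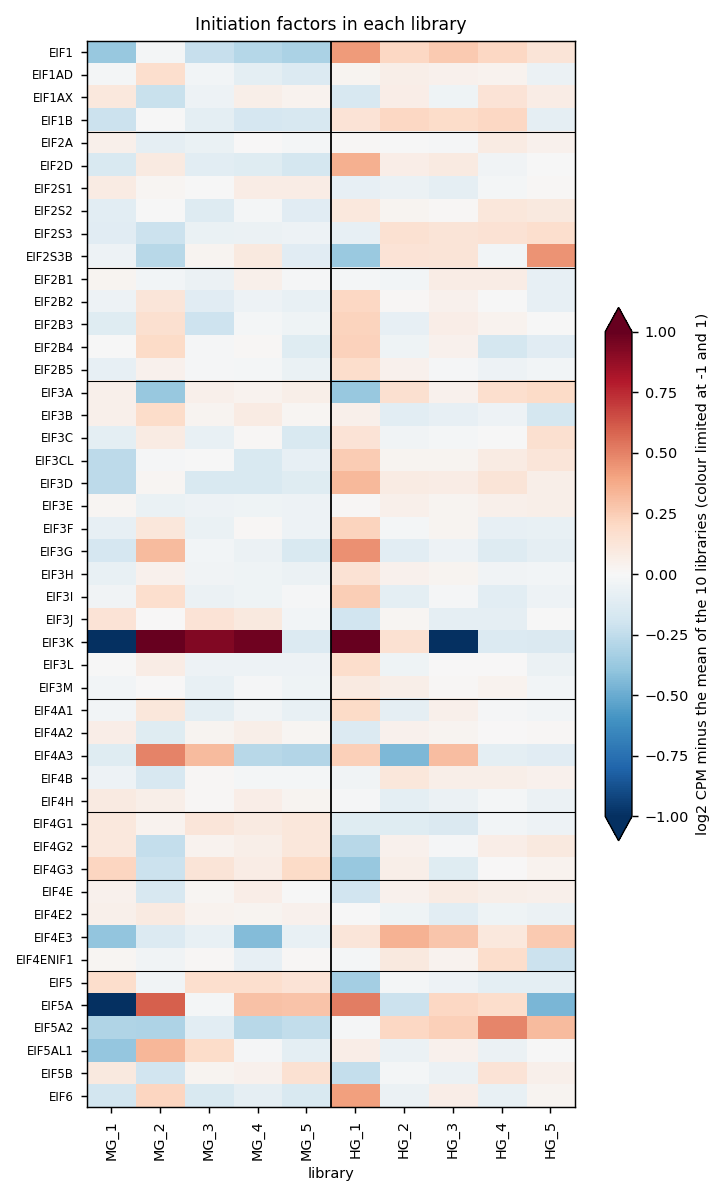
Log2 CPM of 47 initiation factor genes (rows, grouped by complex) in the 10 libraries (columns), each minus the gene's mean over the libraries, with the colour limited at -1 and 1. EIF1, EIF4E3 and EIF5A2 are blue or near white in control and red or near white in HG. MG_2 and HG_1 deviate together in genes such as EIF3A and EIF3G, and EIF3K and EIF5A vary within both groups.

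Of 48 genes that regulate or follow initiation 47 were tested, and 3 were higher (6.38%, beside 7.62% of everything tested) and 2 lower (4.26%, beside 7.8%), with a median log2 fold change of 0.05. Without MG_2 and HG_1 there were 7 higher and 5 lower (beside 13.3% and 13.8%). Of the 27 regulators 2 were higher and 2 lower (7.41% each), and 5 and 5 without MG_2 and HG_1. DESeq2 called 3 higher and 4 lower, with PABPC4 higher and BZW2 and PABPC1 lower in addition (beside 10.2% and 10.7%). The fit of limma on log2(FPKM + 1) called 1 and 1 (beside 7.14% and 6.49%). EIF4EBP1, the inhibitor that competes with eIF4G for eIF4E, had 34.9, 48.2, 37.2, 40.6 and 40.6 CPM in control and 73.1, 49.9, 55.0, 50.2 and 55.1 CPM in HG. The groups did not overlap, with MG_2 and HG_2 close together (log2 fold change 0.49, standard error 0.118, adjusted p = 0.017, edgeR). The ratio of EIF4EBP1 to EIF4E differed by 0.47 on the log2 scale, from 0.423, 0.672, 0.458, 0.484 and 0.506 in control to 1.04, 0.605, 0.646, 0.60 and 0.664 in HG. MG_2 lay within the HG range, and the exact permutation test, two-sided, gave p = 0.0397 (adjusted p = 0.106). Without MG_2 the difference was 0.57 (adjusted p = 0.0423).

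PAIP2, an inhibitor of the poly(A)-binding protein, had 68.2, 72.2, 64.9, 67.3 and 69.0 CPM in control and 62.6, 59.1, 59.1, 58.4 and 56.9 CPM in HG, without overlap (log2 fold change -0.21, adjusted p = 0.0108, edgeR). MKNK2, a kinase of eIF4E, was higher by 0.29 (adjusted p = 0.0288), and EIF2AK3, the eIF2 kinase of the endoplasmic reticulum (PERK), had -0.39 (adjusted p = 0.0282). Both overlapped between groups. The call of MKNK2 was lost without MG_1, MG_3, MG_4, MG_5, HG_2 or HG_3 (adjusted p up to 0.0763) and in the 3 limma fits on FPKM (adjusted p up to 0.109). That of EIF2AK3 was lost without MG_1, MG_3, MG_4, MG_5 or HG_3 (adjusted p up to 0.0733), with library size alone (adjusted p = 0.052) and in 2 of the limma fits (adjusted p up to 0.0597).

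None of the 8 tested elongation factors was called by edgeR, with or without MG_2 and HG_1, by DESeq2 or by limma. The same held for the 6 termination and recycling factors. Of everything tested, edgeR called 15.4% in either direction. DESeq2 called 10.2% higher and 10.7% lower, and edgeR without MG_2 and HG_1 13.3% and 13.8%. The limma fits called 7.02% to 8.52% higher and 6.37% to 7.33% lower. After removal of the GC and length trend EEF2 was called higher and ABCE1 lower (beside 14.5% and 14.8%). With library size alone EEF1A1 was called higher (beside 8.24%). At an unadjusted p under 0.05, edgeR had 0 in both lists and DESeq2 had 1, EEF1A1. Of 6 mitochondrial factors 1 was called (16.7%, near the 15.4% of everything tested), MTIF2, which brings the initiator tRNA to mitochondrial ribosomes, with 41.2, 38.1, 42.1, 45.2 and 40.9 CPM in control and 49.3, 53.3, 52.0, 51.6 and 47.2 CPM in HG. All HG values lay above all control values (log2 fold change 0.29, standard error 0.0564, adjusted p = 0.00596, edgeR). DESeq2 called 2 of the 6 higher, MTIF2 and the elongation factor GFM1 (log2 fold change 0.24, adjusted p = 0.0463), beside 10.2% of everything tested. The same 2 were called by edgeR without MG_2 and HG_1 (beside 13.3%) and after removal of the GC and length trend (beside 14.5%). With all libraries GFM1 did not pass in edgeR (adjusted p = 0.0884) or in limma on FPKM (adjusted p = 0.632 to 0.663). ATF4, a transcription factor whose translation rises when eIF2 is phosphorylated, had 267, 325, 274, 277 and 274 CPM in control and 431, 357, 388, 351 and 338 CPM in HG, also without overlap (log2 fold change 0.40, adjusted p = 0.00583, edgeR).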

How the data were processed

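RNA of 10 ARPE-19 libraries had been sequenced. The authors deposited 1 table of read counts per gene, whole numbers without normalization, and 1 table of FPKM, which the authors had scaled by transcript length and library size. Per the submitters' processing notes, fastp 0.20.1, HISAT2 2.2.1 and GRCh38 were used, and the counting program and annotation are not given in the sources used here. MSTRG loci, 2163 of the 22626 entries, held 1.34% to 1.65% of the counts. The FPKM table carries no depth, and the tables differ for some genes.

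Counts were compared in R 4.3.3 with edgeR 4.0.16 (default filter on low counts, TMM, quasi-likelihood test, no covariate) over 14936 genes and loci, with Benjamini-Hochberg adjustment. CPM are counts scaled to the TMM-adjusted library size, and the standard error is the log2 fold change divided by the square root of F. Ratios within a library, with 0.5 added to each count, were compared by a two-sided exact permutation test in SciPy 1.17.1. Alternatives were DESeq2 1.42.0, library size alone or RLE factors in place of TMM, no filter or a minimum of 10 counts in each library, limma 3.58.1 on log2(FPKM + 1), also with a minimum mean FPKM of 1, and on log2(FPKM + 0.1), removal of each library's lowess trend (span 0.3) on GC content and length for 13538 genes, MG_2 and HG_1 left out together, and each library left out in turn. Added after seeing the data were EIF3C and EIF3CL as 1 gene and the search for TOP-like starts. The edgeR, DESeq2 and limma fits were checked on simulated counts with known changes and no GC trend.

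Positions and shared 100-base windows come from GENCODE release 29 on GRCh38, and promoters from RefSeq on GRCh38.p14. The counts of replicates differed beyond sampling noise in every pair (chi-square per gene 13 to 78), so each library was counted once. The sampling limit of 3 counts covers counting error only. The members, gene lists, pairs for ratios and alternatives were chosen with earlier results of these data known. Named with values in every library were the called initiation factor genes and the highest gene per length in each complex. Pathway genes were named where called, with ATF4 and TXNIP, and every tested member could be named. Per-library values of EIF2S1, EIF3B, EIF3K, EIF4H and EIF4E and of the pathway genes were added after their values were seen. The level of EIF1AY in single libraries is not given. No protein sequence was used here, so the paralogues were not compared by protein.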

Additional observations from a re-analysis of the deposited data

Results flagged for a closer look

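In 94 groups of 5 values (47 genes in each condition, CPM), Dixon's criterion set a single library apart in 21, where chance gives about 4.7. Of these, 9 were in MG_2 and 10 in HG_1, the libraries with the GC trend. Over 47 genes, the deviation of the library from its group and the GC content of the gene had a Pearson r of 0.56 in each (Spearman 0.6 in MG_2 and 0.66 in HG_1), given as a description because the genes share the library. The part of GC content in these values was not tested further.

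In MG_2, EIF2D had 67.89 CPM (other controls 56.37 to 59.17), EIF2B2 36.02 (30.54 to 32.02), EIF3G 158.8 (114.0 to 125.3), EIF3I 316.1 (270.8 to 278.9) and EIF6 214.8 (162.8 to 174.0), all higher than the other controls. EIF3A had 290.7 CPM (other controls 388.4 to 394.0), EIF4A2 299.8 (331.5 to 342.2), EIF4G2 1318 (1592 to 1678) and EIF5 228.8 (258.3 to 265.5), all lower.

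In HG_1, EIF2D had 81.21 CPM (other HG libraries 62.07 to 67.58), EIF3D 280.9 (233.6 to 244.9), EIF3G 175.7 (116.6 to 123.7), EIF3I 333.7 (261.6 to 279.5), EIF3L 404.7 (343.8 to 360.6) and EIF6 245.7 (175.3 to 193.2), all higher than the other HG libraries. EIF4E had 70.32 CPM (82.56 to 85.14), EIF2S3 258.6 (299.2 to 306.7), EIF4A2 296.6 (328.0 to 337.6) and EIF5 186.1 (219.4 to 231.6), all lower.

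The remaining values were EIF3E in MG_1, with 319.3 CPM (other controls 301.2 to 306.3), and EIF1B in HG_5, with 42.33 CPM (other HG libraries 49.72 to 52.13).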

How the results depend on the processing

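The 8 higher and 2 lower calls of initiation factor genes moved in number but no called value changed sign. The higher count was 4 to 7 with 1 library left out (beside 5.3% to 9.74% of everything tested) and 6 to 12 in the other alternatives (beside 5.56% to 14.5%). The lower count was 6 with DESeq2 (beside 10.7%), 6 after removal of the GC and length trend (14.8%) and 6 without MG_2 and HG_1 together (13.8%), 1 with library size alone (7.17%), and 0 in each of 3 limma fits on FPKM (6.37% to 7.33%), where 3 lower genes had an unadjusted p under 0.05. It was 1 to 4 with 1 library left out (beside 5.64% to 10.1%), 4 without HG_1 and 1 without MG_1, MG_3, MG_4, MG_5, HG_3, HG_4 or HG_5. EIF1, EIF5A2, EIF4E3 and EIF3D, 4 of the 10, lost their call in no alternative, EIF4G1 in 3 of 21, EIF1B in 7, EIF2S2 in 8, EIF5 in 11, EIF2S3 in 13 and EIF3CL in 10 of 20. Of the 38 genes not called, 11 were called in at least 1 alternative. The matching share of everything tested was not counted, and single alternatives called up to 14.5% of everything tested higher and 14.8% lower. The log2 ratios of EIF1 to EIF1B and EIF4E to EIF4E3 from FPKM differed by 0.2344 and -0.4046 (exact permutation test, adjusted p = 0.0635 each). With 1 library left out they ranged from 0.1921 to 0.2631 and from -0.4844 to -0.3537, with an adjusted p of up to 0.0635, since fewer libraries allow fewer arrangements. In the same fits the EIF4EBP1 to EIF4E ratio ranged from 0.3227 to 0.5733, EIF4G1 to EIF4G2 from -0.2143 to -0.107 and EIF4E to EIF4E2 from 0.0667 to 0.177, each past the threshold in 1 of them, and EIF5A to EIF5A2 from -0.7312 to -0.2325, past it in none. Except where named here, the cause of a change was not tested. No paired analysis was possible because the groups share no replicate numbers in the labels. Depth limits EIF4E1B alone, since the tested genes had at least 114 counts in every library.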
